A study of Mus musculus with 12 samples.

Results

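Genes that encode writers, erasers and scaffold subunits of histone acetylation and lysine methylation were examined for nearby regions bound by 2 BET bromodomain proteins, BRD2 and BRD3, in RAW264.7 cells, a mouse macrophage-like line used as a source of osteoclast precursors. The genes were taken by symbol: protein-coding genes named Kat, Hdac, Sirt, Kdm, Kmt, Setd, Brpf or Ing with a number, Ehmt1 and Ehmt2, and Ep300, Crebbp, Ezh1, Ezh2, Wdr5 and Dot1l. The rule found 75 genes among the 21887 protein-coding genes on chromosomes 1 to 19, X and Y. They comprised 10 histone acetyltransferases, 8 reader and scaffold subunits, 11 zinc-dependent deacetylases, 7 sirtuins, 21 lysine methyltransferases and 18 lysine demethylases. A gene counted as called in a peak list when at least 1 bp of a region lay within 1 kb of either end of the gene, on the mm10/GRCm38 build.

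Acetyltransferases place acetyl groups on histone lysines, which the paired bromodomains of BRD2 and BRD3 recognise, and deacetylases and sirtuins take them off. Lysine methyltransferases and demethylases set the methyl marks that divide active promoters, transcribed gene bodies and silent chromatin. Many of these enzymes work in multi-protein complexes, and ING proteins, BRPF proteins and WDR5 are the subunits that hold such complexes to chromatin or keep them together. In macrophages these enzymes are known as regulators of inflammatory and lineage genes.

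Binding was measured by chromatin immunoprecipitation and sequencing (ChIP-seq) with single-end 50 bp reads, after fixation in 1% formaldehyde for 15 min. Cells had been kept for 4 h with RANKL (50 ng/ml), the cytokine that starts osteoclast formation, together with I-BET (500 nM), a small molecule that occupies BET bromodomains. Other cells had I-BET alone or RANKL alone for the same time, or no treatment. All groups were the same line with no engineered allele named in the labels, and the labels do not say which I-BET compound was used. Each antibody and treatment had 1 library, so the 8 peak lists carry no replicate error, no difference between treatments has a replicate check, and no test between treatments was made. The 4 input libraries were not used here. Read counts and depth are not in the lists, so depth is unknown and a missing call shows that no region was listed there, not that the protein was absent. Of 8 macrophage marker genes, Spi1, Csf1r, Cd68, Cd14, Lyz2 and Cebpa had a call in at least 1 list of each antibody, while Itgam and Adgre1 had none. Cd3e, Epcam, Col1a1, Pecam1 and Alb, which mark other cell types, had no call in any list.

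Histone modifier genes were called with BRD3 in all treatments at a higher share than protein-coding genes at large. With RANKL and I-BET together, 24 of the 75 genes had a BRD3 region (32.0%, exact 95% binomial interval 21.7% to 43.8%), against 11.9% of all protein-coding genes. The BRD3 list of I-BET alone held 23 (30.7%, 20.5% to 42.4%), against 9.73% of all genes. Under RANKL the BRD3 count was 32 (42.7%, 31.3% to 54.6%), against 13.7%, and in untreated cells 37 (49.3%, 37.6% to 61.1%), against 14.0%. The intervals cover counting error only, and genes with a common region do not count as separate evidence. All protein-coding genes include genes that macrophages do not transcribe, so a nearer comparison is a list of 121 genes for partners of the same complexes and for modifiers named otherwise. Of those 121 genes, 36 had a BRD3 call with both agents (29.8%), 29 under I-BET (24.0%), 39 under RANKL (32.2%) and 40 in untreated cells (33.1%). No test of the difference between the lists of genes was made.

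BRD2 was called at few of these genes. The BRD2 lists held 3 of the 75 with RANKL and I-BET together (4.00%, 0.833% to 11.2%), against 0.978% of all genes. They held 7 under I-BET (9.33%, 3.84% to 18.3%), against 3.79% of all genes. Under RANKL there were 8 (10.7%, 4.72% to 19.9%), against 6.21%, and in untreated cells 4 (5.33%, 1.47% to 13.1%), against 2.26%. The 121 related genes gave 4.13% with both agents, 9.92% under I-BET, 15.7% under RANKL and 10.7% in untreated cells. The length of the lists differed too, with 245, 1067, 1716 and 578 BRD2 regions in the same order of treatments and 2842, 2232, 3840 and 3668 BRD3 regions.

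**Figure D1:**
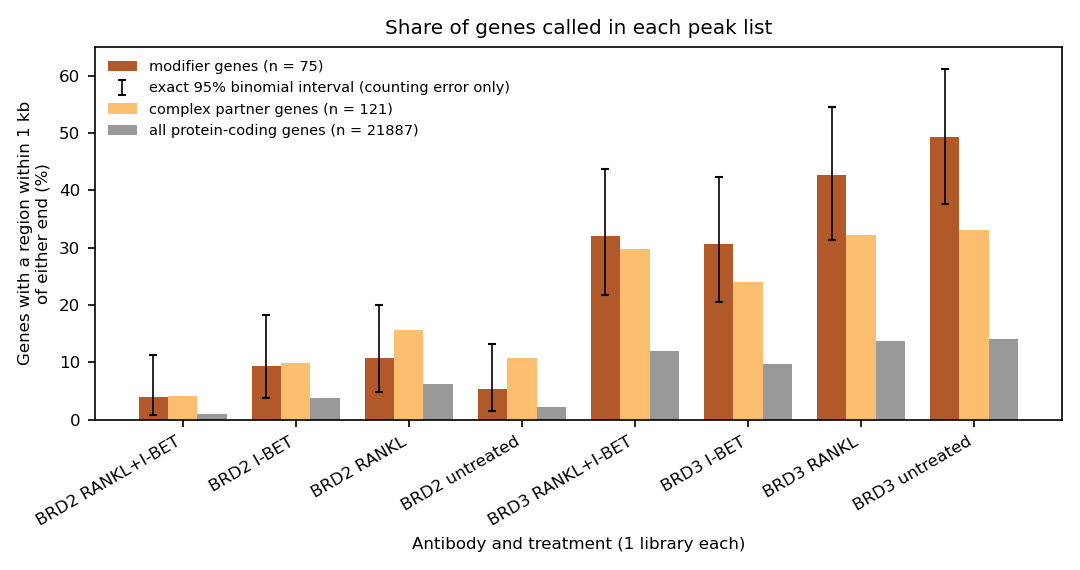
Share of genes with a region within 1 kb of either end (y axis, %) in each of the 8 lists (x axis), for the 75 modifier genes, 121 related genes and all 21887 protein-coding genes; whiskers are exact 95% binomial intervals that cover counting error only. In the 4 BRD3 lists the modifier genes stand at 30.7% to 49.3% and all genes at 9.73% to 14.0%.

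In all, 46 of the 75 genes had a call in at least 1 of the 8 lists, against 21.2% of all genes. BRD3 accounted for 43 of them (17.4% of all genes had any BRD3 call) and BRD2 for 14 (8.84%). Both antibodies were found at 11 (14.7%, against 5.03% of all genes), BRD3 without any BRD2 call at 32 (42.7%, against 12.3%), and BRD2 without any BRD3 call at 3, Brpf3, Kdm3b and Kdm4d (4.00%, against 3.81%). No list held 29 of the genes (38.7%, against 78.8%). In all 4 BRD3 lists were 17 genes, 22.7% of the 75, against 7.65% of all genes. None was in all 4 BRD2 lists, which 49 of all genes were (0.224%). Dot1l, Kdm5d, Kmt5b and Setd5 had the most calls, in 5 lists each. Setd5 had 0 when the regions had to lie within 1 kb of a start in the RefSeq promoter table, whose Setd5 start is 27673 bp from that of the gene record, and the other 3 genes had 5.

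**Figure D2:**
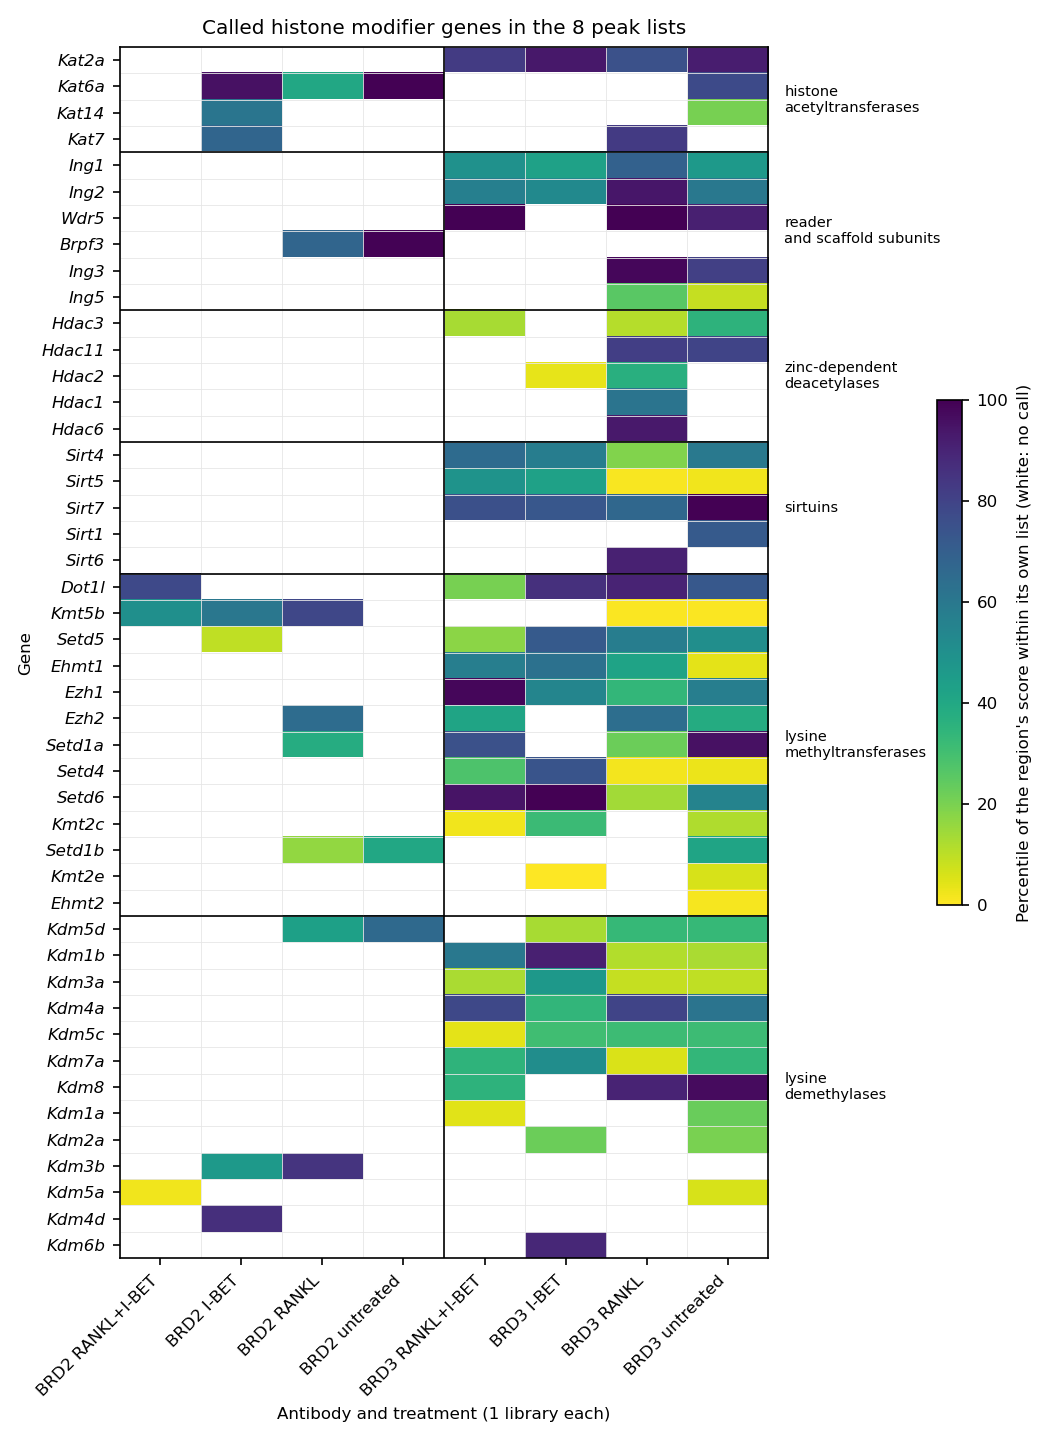
The 46 called genes (y axis, grouped by role) in the 8 lists (x axis, BRD2 left, BRD3 right); colour gives the percentile of the region's score within its own list, and white marks no call. The 17 genes called in all 4 BRD3 lists include 6 methyltransferases and 5 demethylases, and no zinc-dependent deacetylase or sirtuin has a BRD2 call, against 8.84% of all genes.

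Among the acetyltransferases, 6 of 10 genes had no call (60.0%, against 78.8% of all genes). Ep300 and Crebbp, which encode p300 and CBP, and Kat2b, Kat5, Kat6b and Kat8 were in none of the 8 lists, whereas Kat2a, Kat6a, Kat7 and Kat14, 4 of 10, were in at least 1 (40.0%, against 21.2% of all genes). Kat2a (chromosome 11, 100704746 to 100712485) encodes GCN5, the acetyltransferase of the SAGA coactivator complex, and had a BRD3 region in every treatment. The Kat2a regions were 474 bp wide with RANKL and I-BET, 507 bp with I-BET, 494 bp with RANKL and 481 bp in untreated cells, and their midpoints lay 0 to 44 bp inside the gene start. A narrow Kat2a region was thus listed with and without the inhibitor.

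Kat6a (chromosome 8, 22859442 to 22943259), which encodes the MOZ acetyltransferase, was the acetyltransferase gene with most BRD2 calls. Its BRD2 regions measured 409 bp under I-BET, 340 bp under RANKL and 469 bp in untreated cells, and in untreated cells the region had the highest score of the whole BRD2 list, 126. BRD3 had a single Kat6a region, of 722 bp, in untreated cells. Kat7, which encodes HBO1, had a BRD2 region of 924 bp under I-BET and a BRD3 region of 670 bp under RANKL, and no other call. Kat14, an ATAC complex gene, had a BRD2 region of 1074 bp under I-BET and a BRD3 region of 877 bp in untreated cells. The Kat14 region also lay within 1 kb of Pet117, and with each region given to its nearest gene end 1 of the 2 Kat14 calls was left.

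Scaffold and reader genes were mostly BRD3 genes. Of 8, BRD3 called 3 with both agents (37.5%, against 11.9% of all genes), 2 under I-BET (25.0%, against 9.73%), 5 under RANKL (62.5%, against 13.7%) and 5 in untreated cells (62.5%, against 14.0%). Ing1 and Ing2, whose PHD-finger proteins tether the SIN3 deacetylase complex to methylated histone H3, were in all 4 BRD3 lists. Ing1 regions measured 1125 bp with both agents, 2554 bp under I-BET, 1158 bp under RANKL and 1499 bp in untreated cells, so the widest was under I-BET alone. Ing2 regions ranged from 798 to 968 bp. Ing3, of the NuA4 acetyltransferase complex, and Ing5, of the HBO1 and MOZ complexes, were called under RANKL and in untreated cells and in neither list with I-BET. The Ing3 regions measured 910 bp under RANKL and 1001 bp in untreated cells, and the Ing5 regions 367 bp and 452 bp.

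Wdr5 (chromosome 2, 27515147 to 27536535) encodes the WD-repeat subunit shared by the KMT2 and SETD1 methyltransferase complexes. Its BRD3 region measured 477 bp with RANKL and I-BET, 437 bp under RANKL and 1756 bp in untreated cells, and there was none under I-BET alone. The region's score stood at the 99.8th percentile of its list with both agents, the 99.9th under RANKL and the 91.3rd in untreated cells. Brpf3, a scaffold gene of the HBO1 complex, had BRD2 regions of 599 bp under RANKL and 693 bp in untreated cells and no BRD3 region. Brpf1 and Ing4 were in none of the lists. The nearest BRD3 regions to Brpf1 lay 1812 to 1875 bp from its end, beyond the 1 kb limit.

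Zinc-dependent deacetylase genes had no BRD2 call in any treatment, and 5 of 11 had a BRD3 call (45.5%, against 17.4% of all genes). With 8.84% of all genes in any BRD2 list, 0 of 11 is near the background. All 5 were in the RANKL list: Hdac1 and Hdac2, the catalytic subunits of the SIN3, NuRD and CoREST complexes, Hdac3, that of the NCoR complex, Hdac6, a mainly cytoplasmic tubulin deacetylase, and Hdac11. The BRD3 list of RANKL with I-BET and that of I-BET alone held 1 each (9.09%, against 11.9% and 9.73% of all genes). The untreated list held 2 (18.2%, against 14.0%), and the share of all genes in the RANKL list was 13.7%. Hdac1 and Hdac6 had a region under RANKL and in no other list, of 701 bp and 469 bp. Hdac2 had regions of 575 bp under I-BET and 515 bp under RANKL. Hdac3 had 671 bp with both agents, 835 bp under RANKL and 478 bp in untreated cells, in regions that also lay within 1 kb of Rell2. With each region given to its nearest gene end, Hdac3 had no call. Hdac11 had 464 bp under RANKL and 469 bp in untreated cells. Hdac4, Hdac5, Hdac7, Hdac8, Hdac9 and Hdac10 had no region near either end.

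Of the sirtuins, which use NAD, 5 of 7 had a BRD3 call (71.4%, against 17.4% of all genes) and 0 a BRD2 call, which is near the background of 8.84%. Sirt4 and Sirt5, of mitochondria, and Sirt7, of the nucleolus, were in all 4 BRD3 lists. Sirt5 regions ranged from 403 to 540 bp. Sirt4 regions were 1238 bp with both agents, 2701 bp under I-BET, 1441 bp under RANKL and 2586 bp in untreated cells, and in the I-BET and untreated lists they reached the window of Pxn. None lay within 1 kb of the Sirt4 start in the promoter table, 5967 bp from that of the gene record. Sirt7 (chromosome 11, 120618371 to 120625014) had a region at each end of the gene in all 4 BRD3 lists. The region at its start, 616 to 759 bp wide, also lay within 1 kb of Mafg, and the one at its far end, 447 to 493 bp wide, within 1 kb of Pcyt2. Sirt1, the best studied nuclear sirtuin gene, had a BRD3 region of 854 bp in untreated cells and in no other list, and Sirt6, of the chromatin-bound sirtuin, one of 622 bp under RANKL and in no other list. Sirt2 and Sirt3 had no call.

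Lysine methyltransferases were the largest group, with 13 of 21 called (61.9%, against 21.2% of all genes), all 13 in the untreated BRD3 list. Of these 13 genes, 9 had a BRD3 region with RANKL and I-BET (42.9% of the 21, against 11.9% of all genes). Under I-BET there were 8 (38.1%, against 9.73%) and under RANKL 9 (42.9%, against 13.7%). In untreated cells the 13 were 61.9% of the 21, against 14.0% of all genes. Dot1l (chromosome 10, 80755101 to 80795461) encodes the methyltransferase of the histone H3 core that marks transcribed genes. Its BRD3 regions measured 611 bp with both agents, 774 bp under I-BET, 1142 bp under RANKL and 773 bp in untreated cells, and its single BRD2 region, of 435 bp, was found with both agents. Setd5 had BRD3 regions of 1338, 1368, 1811 and 1930 bp in the same order and a BRD2 region of 975 bp under I-BET. Ezh1 and Ezh2 encode the alternative catalytic subunits of Polycomb repressive complex PRC2, and their calls differed. Ezh1 had regions of 451 to 501 bp in every BRD3 list. Ezh2 (chromosome 6, 47530274 to 47595270) had 499 bp with both agents, 496 bp under RANKL, 811 bp in untreated cells and no region under I-BET alone, with a BRD2 region of 934 bp under RANKL.

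Ehmt1 and Ehmt2, which encode the partner enzymes GLP and G9a, also differed. Ehmt1 had regions of 764 to 873 bp in all 4 BRD3 lists, and Ehmt2 a single BRD3 region of 829 bp, in untreated cells, that it shared with Zbtb12 and whose score stood at the 1.55th percentile of its list. Setd1a, an H3 methyltransferase gene of the COMPASS family, had BRD3 regions of 919 bp with both agents, 967 bp under RANKL and 1015 bp in untreated cells, none under I-BET, and a BRD2 region of 764 bp under RANKL. Its paralog Setd1b had a BRD3 region of 1339 bp in untreated cells and the widest BRD2 regions of the group, 4612 bp under RANKL and 3383 bp in untreated cells, all shared with Rhof. With each region given to its nearest gene end, Setd1b had no call.

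Kmt5b (chromosome 19, 3767362 to 3818303), which encodes an H4 methyltransferase, was called by BRD2 in all treatments but the untreated cells: 826 bp with both agents, 1158 bp under I-BET and 1136 bp under RANKL. BRD3 regions at Kmt5b measured 1193 bp under RANKL and 1249 bp in untreated cells, near the bottom of their lists by score (0.638th and 0.436th percentile), and there was none in the lists with I-BET. Setd4 and Setd6 were in all 4 BRD3 lists, Setd6 in regions that also lay within 1 kb of Ndrg4. Kmt2c was called by BRD3 with both agents, under I-BET and in untreated cells, and Kmt2e under I-BET and in untreated cells. Kmt2a, Kmt2b, Kmt2d, Kmt5a, Kmt5c, Setd2, Setd3 and Setd7 had no region within 1 kb of an end.

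Demethylase genes had calls at 13 of 18 (72.2%, against 21.2% of all genes). Kdm3a, Kdm4a, Kdm7a, Kdm1b and Kdm5c were in all 4 BRD3 lists. Kdm4a, a JmjC demethylase gene, had 555 bp with both agents, 561 bp under I-BET, 521 bp under RANKL and 451 bp in untreated cells. Kdm7a had 667, 621, 930 and 1069 bp in the same order, wider in both lists without I-BET. Kdm5c and Kdm5d are the X- and Y-linked copies of an H3 demethylase gene, and reads that fit both copies could be placed at either. Kdm5c had 701 to 912 bp in the 4 BRD3 lists and no BRD2 call. Kdm5d had BRD3 regions of 587 bp under I-BET, 486 bp under RANKL and 659 bp in untreated cells and BRD2 regions of 863 bp under RANKL and 503 bp in untreated cells.

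Kdm1a and Kdm1b encode the flavin-dependent demethylases. Kdm1a, the gene of LSD1, had 457 bp with both agents and 1136 bp in untreated cells. Kdm1b was called throughout, in regions of 606 to 769 bp that it shared with Tpmt. Kdm8 had BRD3 regions of 673 bp with both agents, 703 bp under RANKL and 595 bp in untreated cells, with no region under I-BET. Kdm3b had BRD2 regions of 1237 bp under I-BET and 1039 bp under RANKL and no BRD3 region. Kdm4d had a BRD2 region of 494 bp under I-BET, shared with Cwc15, and Kdm5a had 513 bp with BRD2 in cells given both agents and 528 bp in the untreated BRD3 list, both shared with Ccdc77. Kdm2b, Kdm4b, Kdm4c, Kdm5b and Kdm6a had no call.

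The 1 kb limit decided the calls of Kdm2a, Kdm6b, Kmt2d and Brpf1. Kmt2d, of a COMPASS family methyltransferase, had regions 1504 to 1785 bp from its end in 5 lists (BRD2 in the 3 treated lists, BRD3 under RANKL and in untreated cells) and Brpf1, as above, in the 4 BRD3 lists, and neither counted. Kdm2a had a BRD3 region near the same place in every list, with its nearest edge 1054 bp from the gene end with both agents, 982 bp under I-BET, 1035 bp under RANKL and 969 bp in untreated cells, so it counted as called under I-BET and in untreated cells. Kdm6b, of an inflammation-linked H3 demethylase, was called in the BRD3 list of I-BET through a region of 1557 bp shared with Dnah2. Regions with both agents and under RANKL lay 1306 bp and 1281 bp from the same end and did not count. Within 2 kb, Kdm2a was called in 4 lists and Kdm6b in 3.

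Nearly all calls lay at the start of the gene rather than at its far end. Strand was given for 63 of the 75 genes by the RefSeq promoter table, and 37 of the 46 called genes were among them. The gene start is taken here as the outer end of the gene record on that strand. By the gene record, every called gene with a known strand had a region in its start window in each list that called it, 23 of 23 with both agents, 20 of 20 under I-BET, 30 of 30 under RANKL and 31 of 31 in untreated cells for BRD3. Over all genes 95.8%, 95.7%, 95.2% and 95.6% of BRD3-called genes with a known strand were called at the start in the same order. With BRD2 it was 2 of 2 with both agents (97.1% of all genes), 5 of 5 under I-BET (96.9%), 5 of 5 under RANKL (95.2%) and 2 of 2 in untreated cells (97.6%). By the starts of the promoter table, Setd5 and Sirt4 were exceptions, with no region within 1 kb in any list. Midpoints of BRD3 regions at the start lay at a median of 8 bp with both agents, -22.5 bp under I-BET, 16.5 bp under RANKL and 6 bp in untreated cells, where positive values run into the gene. Within 500 bp of the start lay 21 of 23, 16 of 20, 27 of 30 and 28 of 31 midpoints in the same order. For 12 of the 46 genes every calling region also lay within 1 kb of another gene.

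**Figure D3:**
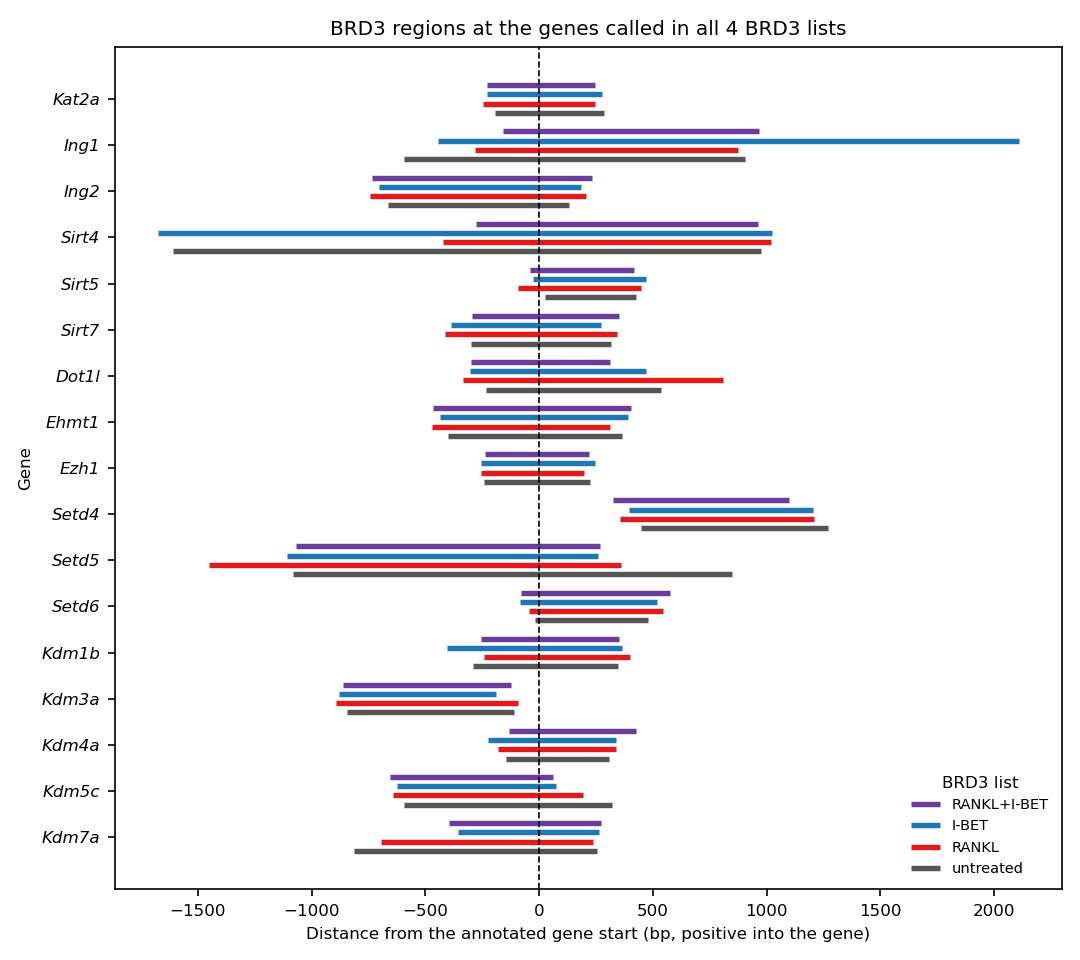
BRD3 regions in the start window of the 17 genes called in all 4 BRD3 lists (y axis) as distance from the gene start (x axis, bp, positive into the gene); 1 bar per treatment. Bars of 1 gene lie on top of each other in place, Kdm3a regions end before the start, Setd4 regions begin after it, and the Ing1 region of I-BET (2554 bp) and the Sirt4 regions of I-BET and untreated cells (2701 and 2586 bp) reach farthest.

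The promoters of 5 genes that show the main patterns are given for the 300 bases from 250 before to 50 after a RefSeq start (RefSeq, GRCm38.p6). They were chosen because Kat2a and Dot1l were called in all 4 BRD3 lists, Wdr5 and Ezh2 in all but I-BET alone, and Kat7 by a different antibody in each of 2 treatments. Each reads 5′ to 3′ on the gene's strand. Capitals mark the strings GGGCGG for the GC box, CCAAT for the NF-Y box, CGGAAG for the ETS core, GCGCATG for the NRF1 core, ATGGCG for the YY1 core, CACGTG for the E-box of MYC and MAX, TGACG for the CRE core and TATAAA for the box bound by TBP, on either strand. The NRF1 and YY1 strings can share letters.
Kat2a, chr11:100712418-100712717, minus strand: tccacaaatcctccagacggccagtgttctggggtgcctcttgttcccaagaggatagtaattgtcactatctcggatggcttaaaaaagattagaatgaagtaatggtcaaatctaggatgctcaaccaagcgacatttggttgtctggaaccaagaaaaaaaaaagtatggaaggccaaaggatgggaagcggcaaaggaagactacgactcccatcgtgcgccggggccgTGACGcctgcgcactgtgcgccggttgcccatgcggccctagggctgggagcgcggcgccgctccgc
Wdr5, chr2:27514897-27515196, plus strand: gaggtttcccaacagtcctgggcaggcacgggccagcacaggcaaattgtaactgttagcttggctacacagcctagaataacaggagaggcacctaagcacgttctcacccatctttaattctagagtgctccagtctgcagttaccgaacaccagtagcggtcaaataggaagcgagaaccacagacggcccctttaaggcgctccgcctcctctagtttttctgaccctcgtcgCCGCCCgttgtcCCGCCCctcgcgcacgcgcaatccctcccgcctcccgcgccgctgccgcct
Dot1l, chr10:80754953-80755252, plus strand: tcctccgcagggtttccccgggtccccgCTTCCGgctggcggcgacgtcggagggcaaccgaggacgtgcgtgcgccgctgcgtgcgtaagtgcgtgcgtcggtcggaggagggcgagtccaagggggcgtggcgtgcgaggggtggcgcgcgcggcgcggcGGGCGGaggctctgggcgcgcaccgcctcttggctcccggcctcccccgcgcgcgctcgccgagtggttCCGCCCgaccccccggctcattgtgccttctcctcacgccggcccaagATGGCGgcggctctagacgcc
Ezh2, chr6:47594981-47595280, minus strand: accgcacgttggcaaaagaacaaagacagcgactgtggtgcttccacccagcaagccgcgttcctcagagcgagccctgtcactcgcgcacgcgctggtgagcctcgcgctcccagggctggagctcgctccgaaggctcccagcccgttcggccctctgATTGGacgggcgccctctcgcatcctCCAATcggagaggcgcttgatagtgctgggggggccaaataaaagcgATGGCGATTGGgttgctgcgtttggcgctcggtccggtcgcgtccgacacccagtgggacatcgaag
Kat7, chr11:95310197-95310496, minus strand: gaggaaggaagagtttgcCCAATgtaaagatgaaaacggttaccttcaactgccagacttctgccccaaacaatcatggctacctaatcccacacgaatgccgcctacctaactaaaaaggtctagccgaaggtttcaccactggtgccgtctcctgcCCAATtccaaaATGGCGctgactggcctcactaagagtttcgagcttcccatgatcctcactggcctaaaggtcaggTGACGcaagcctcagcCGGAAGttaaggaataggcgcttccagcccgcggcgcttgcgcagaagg

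The Kat2a sequence lay in the BRD3 regions for 297 bases with both agents, 297 under I-BET, 300 under RANKL and 264 in untreated cells. That of Dot1l lay wholly inside the BRD3 region of every treatment, with 54 bases in its BRD2 region. The Wdr5 sequence was covered for 282 bases with both agents, 287 under RANKL and 300 in untreated cells. All 300 bases of Ezh2 lay in the BRD3 regions with both agents, under RANKL and in untreated cells. Kat7 had 300 bases in the BRD2 region of I-BET and 229 in the BRD3 region of RANKL. Wdr5 held 2 GC boxes, Kat2a 1 CRE core, and Ezh2 3 NF-Y boxes and 1 YY1 core.

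Promoters of modifier genes held about as many CpG dinucleotides as those of BRD3-called genes in general. A promoter was available for 63 of the 75 genes and 17492 of all genes. The median was 24 CpG in the 35 promoters of modifier genes with any BRD3 call and 21 in the 28 without. Over all genes the medians were 24 in 3122 promoters with a BRD3 call and 9 in 14370 without. Genes were split here by calls at the ends of the gene record. Setd5 and Sirt4, with 1 and 15 CpG, thus count as called though no region lay near the promoter read, and Hdac4, Kdm4c, Kmt2d and Kmt5a as uncalled though BRD3 regions lay within 1 kb of a promoter-table start. Among promoters with 10 or more CpG, 34 of 58 modifier genes (58.6%) had any BRD3 call, against 28.5% of 10008 genes, and 16 (27.6%) were in all 4 BRD3 lists, against 13.1%. The GC box was in 62.9% of the called modifier promoters, 67.9% of the uncalled and 46.3% of all promoters. CCAAT was in 40%, 39.3% and 39.2%, the ETS core in 34.3%, 25% and 21.5%, the YY1 core in 25.7%, 17.9% and 11.2%, and the CRE core in 20%, 42.9% and 23.8%. The NRF1 core was in 8.57%, 0% and 4.88%, the E-box in 5.71%, 10.7% and 7.91%, and TATAAA in 2.86%, 7.14% and 13.3%. These shares describe letters in a 300-base window and no factor was measured.

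**Figure D4:**
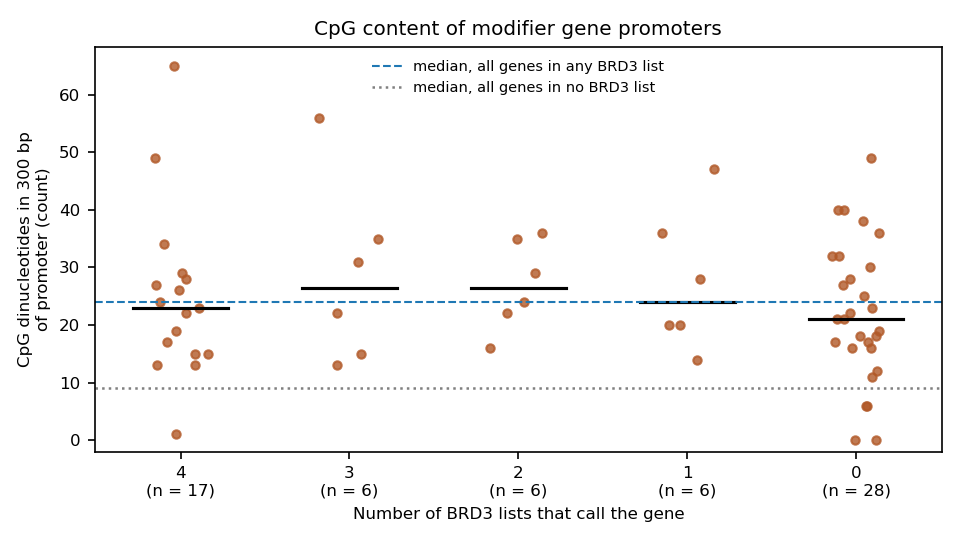
CpG dinucleotides in 300 bp of promoter (y axis, count) for 63 modifier genes by the number of BRD3 lists that call them (x axis); points are genes, bars medians, and the lines give the medians of all genes with and without a BRD3 call. Most modifier genes without a call lie above 9 CpG, the median of uncalled genes, and their median is 21.

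With I-BET alone, 16 of the 37 modifier genes called by BRD3 in untreated cells had no BRD3 region (43.2%), against 39.1% of all genes called there. The 16 were, in order of score in the untreated list, Kdm8, Setd1a, Wdr5, Ing3, Hdac11, Kat6a, Sirt1, Setd1b, Ezh2, Hdac3, Kdm1a, Kat14, Ing5, Kdm5a, Ehmt2 and Kmt5b. They cover all 6 roles, and 21 genes (56.8% of the 37 and 91.3% of the 23 called under I-BET) were in both lists, with overlapping regions at each. Hdac2 and Kdm6b were called under I-BET but lacked a region in untreated cells, 2 of 23 (8.70%), against 12.3% of all genes called under I-BET. The untreated regions of the 16 had a median width of 841.5 bp and those of the 21 one of 773 bp, against 728 bp and 681.5 bp for all genes. The order of the counts changed when the lists were cut to equal length. With every BRD3 list cut to 2232 regions by score, 23 modifier genes were called under I-BET and 18 in untreated cells. Of all genes, 9.73% and 8.57% were called in these cut lists. No call under I-BET was left for 8 of the 18 (44.4%, against 36.6% of all genes called in untreated cells). With the top 50% of each list by score it was 8 of 16 (50%, against 62.9%). The part that sequencing depth has in this result was not tested.

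I-BET added to RANKL left 22 of the 32 genes called under RANKL with a BRD3 region (68.8%, and 91.7% of the 24 called with both agents). The 10 without one (31.2%, against 23.5% of all genes called under RANKL) were Ing3, Hdac6, Sirt6, Kat7, Hdac11, Hdac1, Hdac2, Kdm5d, Ing5 and Kmt5b. Of the 5 deacetylase genes called under RANKL, Hdac3 alone was called with both agents, in a region also within 1 kb of Rell2. Of all genes called under RANKL, 23.5% had no call with both agents. Kdm1a and Kmt2c had a region with both agents and not under RANKL, 2 of 24 (8.33%), against 11.6% of all genes. With lists of equal length by score the counts were 17 with both agents (22.7%, against 9.54% of all genes) and 17 under RANKL (22.7%, against 7.98%), with 9 in both. The other 8 of the 17 called under RANKL had no call with both agents (47.1%, against 34% of all genes called there). Over the 4 BRD3 lists, 14 genes were called without I-BET, under RANKL or in untreated cells, and in neither list with I-BET (18.7% of the 75, against 4.90% of all genes). Of these, Hdac1, Hdac6, Kat7 and Sirt6 were in the RANKL list alone (5.33%, against 1.40%), and Ehmt2, Kat14, Kat6a, Kdm5a, Setd1b and Sirt1 in the untreated list alone (against 2.11% of all genes). The remaining 4 genes were in both the RANKL and the untreated list: Hdac11, Ing3, Ing5 and Kmt5b (5.33% of the 75, against 1.39% of all genes). A further 5, Ezh2, Hdac3, Kdm8, Setd1a and Wdr5, were absent from the list of I-BET alone and present in the other 3 BRD3 lists (6.67%, against 1.65%). The shares of the 75 in these patterns also carry the higher BRD3 share of modifier genes, 57.3% in any BRD3 list against 17.4% of all genes. Among genes with any BRD3 call, the 14 were 14 of 43, against 1072 of 3799 genes of all kinds. The gaps in these patterns thus do not by themselves show that modifier genes lacked calls with I-BET more often than other BRD3-called genes.

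RANKL went with a BRD3 call at 5 genes that had none in untreated cells, Hdac6, Sirt6, Kat7, Hdac1 and Hdac2. They were 5 of 32 genes called under RANKL (15.6%, against 20.0% of all genes). Untreated cells had a region at 10 genes with none under RANKL (27.0% of 37, against 21.6%): Kat6a, Sirt1, Setd1b, Kdm1a, Kat14, Kdm2a, Kmt2c, Kdm5a, Kmt2e and Ehmt2. In both lists were 27, 84.4% of the RANKL calls and 73.0% of the untreated calls. Scores of the 5 RANKL genes stood at the 93.3rd, 90.7th, 83.0th, 61.4th and 37.1st percentile of the RANKL list. The 10 genes of untreated cells had a median percentile of 20.4 in the untreated list, against 36.9 for all genes lost there. The 1 kb limit decided the call of Kdm2a, whose region lay 1035 bp from the gene end under RANKL and 969 bp in untreated cells. Within 2 kb, 9 of 39 genes called in untreated cells had none under RANKL (23.1%, against 21.2%). Some settings put the modifier share below that of all genes. These were gene starts alone (16.1%, against 21.3%), the nearest gene end (21.2%, against 25%) and promoter-table starts (18.2%, against 21.7%). The others were the top 50% by score (37.5%, against 48.6%) and lists of equal length (38.9%, against 42.9%). The remaining alternatives kept it above.

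RANKL on top of I-BET went with BRD3 regions at Wdr5, Setd1a, Ezh2, Kdm8, Hdac3 and Kdm1a that were not listed under I-BET, 6 of 24 (25.0%, against 23.0% of all genes called with both agents). All 6 were also called in untreated cells. Kdm6b, Kdm2a, Kdm5d, Hdac2 and Kmt2e had a region under I-BET and none with both, 5 of 23 (21.7%, against 6.10% of all genes called under I-BET). The 1 kb limit decided the calls of Kdm2a and Kdm6b here, and within 2 kb the count was 3 of 24 (12.5%, against 5.79%). The 5 genes had a median score percentile of 13.2 in the I-BET list, against 50.3 for all genes lost there. With the top 50% by score, 5 of 13 had none with both agents (38.5%, against 43.1%). Lists of equal length by score gave 17 genes with both agents (22.7%, against 9.54% of all genes) and 23 under I-BET (30.7%, against 9.73%). Of those 23, 10 had no call with both agents (43.5%, against 23.3% of all genes called under I-BET). In both lists as deposited were 18.

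**Figure D5:**
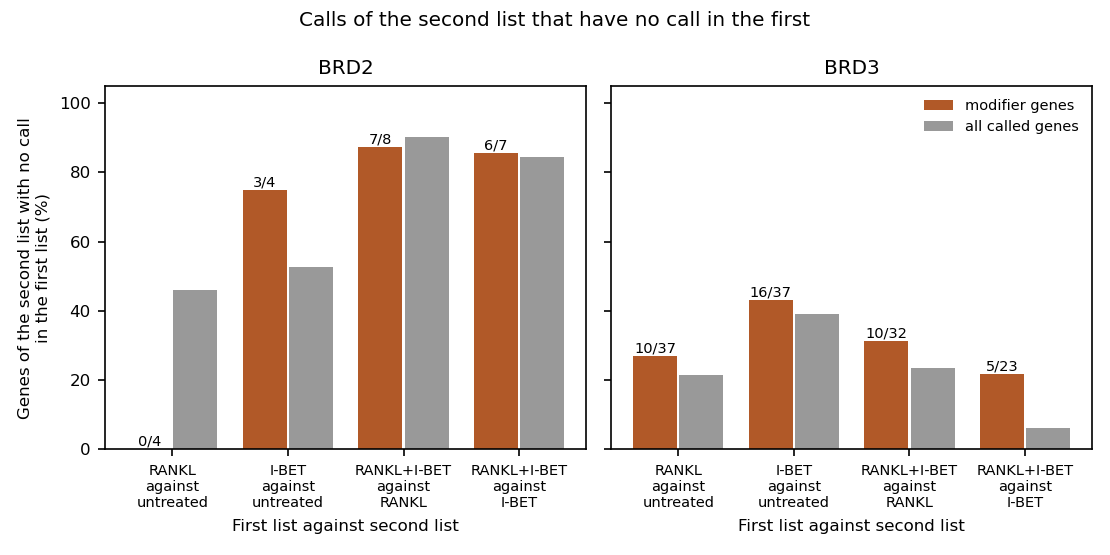
Share of genes called in the second list that have no call in the first (y axis, %) for 4 comparisons of treatments (x axis) with BRD2 and BRD3; brown bars are modifier genes with their counts, grey bars all called genes. For BRD3 the modifier genes stand at 21.7% to 43.2% and all genes at 6.10% to 39.1%.

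The BRD2 comparisons rest on 3 to 8 genes. RANKL went with BRD2 regions at Kdm3b, Kmt5b, Ezh2 and Setd1a that untreated cells lacked, 4 of 8 (50.0%, against 80.4% of all genes called under RANKL). The 4 genes of untreated cells, Kat6a, Brpf3, Kdm5d and Setd1b, were all called under RANKL, where 46.0% of all genes called in untreated cells had no call. I-BET alone went with BRD2 regions at Kdm4d, Kat7, Kat14, Kmt5b, Kdm3b and Setd5, 6 of 7 (85.7%, against 71.9%). Brpf3, Kdm5d and Setd1b were called by BRD2 in untreated cells but lacked a region under I-BET, 3 of 4 (75.0%, against 52.8%), and Kat6a was in both lists. With RANKL and I-BET together, Kmt5b kept a BRD2 region while the other 7 of the 8 genes called under RANKL had none (87.5%, against 90.4%). Dot1l and Kdm5a were called by BRD2 with both agents and with neither agent alone, 2 of 3 (66.7%). Over all genes it was 38.8% set against RANKL and 40.2% set against I-BET. The Kdm5a region, shared with Ccdc77, had a score of 34.67 in a list whose lowest score was 34.33. It stood at the 2.24th percentile of that list and the Dot1l region at the 77.8th. Against I-BET alone, 6 of 7 had none with both agents (85.7%, against 84.6%).

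BRD2 and BRD3 regions met at few modifier genes within a treatment. With RANKL and I-BET, 1 of the 3 BRD2 genes, Dot1l, was also called by BRD3 (33.3%, against 31.3% of all BRD2 genes), and the 2 regions overlapped. Under I-BET it was 1 of 7, Setd5 (14.3%, against 26.5%). Under RANKL it was 4 of 8, Ezh2, Kdm5d, Kmt5b and Setd1a (50.0%, against 43.8%), and in untreated cells 3 of 4, Kat6a, Kdm5d and Setd1b (75.0%, against 51.4%). Regions of the 2 antibodies overlapped at each of these genes. Of the BRD3 genes, those shared with BRD2 made up 4.17% with both agents, 4.35% under I-BET, 12.5% under RANKL and 8.11% in untreated cells. Over all genes called by BRD3 the shares were 2.58%, 10.3%, 19.8% and 8.29% in the same order.

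Among the 17 genes called in all 4 BRD3 lists, the width of the widest region had a median of 667 bp with RANKL and I-BET, 701 bp under I-BET, 800 bp under RANKL and 764 bp in untreated cells. For the 1674 genes of all kinds in the 4 lists the medians were 637, 669, 690 and 685.5 bp. The region was narrower with both agents than under RANKL at 12 of the 17 genes (70.6%, against 65.5% of the 1674), with a median width ratio of 0.924. Under I-BET alone it was narrower than in untreated cells at 5 of 17 (29.4%, against 50.5%), with a median ratio of 1.07. Narrower regions under RANKL than in untreated cells were found at 6 of 17 (35.3%, against 43.9%), and with both agents than under I-BET at 11 of 17 (64.7%, against 63.9%). The largest differences were at Sirt4 and Ing1, where the regions of I-BET were more than 1 kb wider than those with both agents.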

How the data were processed

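BRD2 and BRD3 binding was given as 8 peak lists, 1 for each group. The submitters' processing notes list MACS2 2.1.1.20160309, Bowtie2 2.3.4.1 and FastQC, with the mm10/GRCm38 build, and no order or parameters. Per the peak names in the deposited lists, 98.41% to 99.96% of regions join exactly 3 peaks, 1 from each of 3 numbered peak sets that the labels do not explain. Each region's score was deposited by the authors and served here only to rank or filter regions within a list. Start and end columns in the deposited lists were read as BED positions and are given counted from 1; the lists do not say how starts are counted, so widths may be 1 bp too small. Depth is unknown.

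Gene ends came from a RefSeq table of GRCm38.p6, and strand, starts and promoters from the RefSeq promoter table. Windows, overlaps and counts were computed with Python 3.11.15, pandas 2.3.3 and numpy 2.4.6, intervals with scipy 1.17.1, and the window code was tested on simulated data. The modifier genes and all gene lists were chosen with earlier results of these data known. Any modifier gene called in at least 1 list could be named, with values for those called in the most lists and, per comparison, up to 30 called in 1 list and not the other. Uncalled genes were named by role, and promoters were printed for up to 6 genes on which results turn. Alternatives were other windows, the midpoint rule, lists cut by score, gene starts alone and whole genes, and, chosen after seeing the data, 3 more: starts counted from 1, the nearest gene end, and starts of the promoter table. Groups had 1 library each, so no test was made.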

Additional observations from a re-analysis of the deposited data

Results flagged for a closer look

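Kat14 and Kmt5b, 2 genes, moved in opposite directions between the antibodies under I-BET against untreated cells (2.67% of the 75, against 0.617% of all genes). At both, BRD2 had a region under I-BET and none in untreated cells, and BRD3 had a region in untreated cells that the I-BET list lacked. With 1 library per group the difference between the antibodies was not tested. The Kat14 regions are shared with Pet117, and the BRD3 score of Kmt5b in untreated cells was at the 0.436th percentile of its list.

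In data outside the 1 kb windows, 9 modifier genes had a region inside the gene and clear of both ends, with 28 such regions over the 8 lists. With BRD3 these were 4 genes with RANKL and I-BET (5.33%, against 2.04% of all genes), 2 under I-BET (2.67%, against 1.49%), 8 under RANKL (10.7%, against 3.02%) and 7 in untreated cells (9.33%, against 2.81%). With BRD2 they were 1 gene with both agents (against 0.146%), 1 under I-BET (0.886%), 2 under RANKL (1.36%) and 0 in untreated cells (0.420%). Longer genes have more room for such a region, and the shares were not matched for gene length. The 9 genes range from 21860 bp (Kdm6b) to 869516 bp (Hdac9). Hdac4 and Kdm4c had such a BRD3 region in all 4 treatments, and Kmt2d a BRD2 region in the 3 treated lists. For 7 of the 9 genes the promoter table gives a start, and 14 of their 22 regions, at 4 genes (Hdac4, Kdm4c, Kmt2d and Kmt5a), lay within 1 kb of such a start. Hdac5, Hdac9 and Kdm4a had regions farther inside, with Hdac5 and Hdac9 called in this way by BRD3 under RANKL and in untreated cells.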

How the results depend on the processing

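No paired analysis was possible because each group has 1 library and the labels give no replicate numbers. Under all 10 alternatives for the calls, the share of modifier genes called by BRD3 stayed above that of all genes in the 4 lists. None of the counts per list or of shared genes moved by more than 1.5 times within 500 bp, by midpoint, with the nearest gene end or with starts counted from 1. The largest moves came from cutting the lists by score; fewer regions enter by construction. With the top 50% by score, BRD3 modifier genes numbered 11 with both agents (14.7%, against 6.12% of all genes) and 13 under I-BET (17.3%, against 5.03%). They numbered 16 under RANKL (21.3%, against 6.77%) and 16 in untreated cells (21.3%, against 7.05%). BRD2 genes numbered 1 with both agents (1.33%, against 0.493%) and 4 under RANKL (5.33%, against 3.13%). With BRD3, genes in both lists then numbered 10 for RANKL against untreated and 8 for I-BET against untreated. They numbered 5 for both agents against RANKL and 8 for both against I-BET. The shares of the second list with no call in the first were 37.5%, 50%, 68.8% and 38.5% in the same order. Over all genes they were 48.6%, 62.9%, 53.9% and 43.1%. The modifier share was thus above that of all genes only for both agents against RANKL. With BRD2, genes in both lists numbered 1 for RANKL against untreated and 0 for both agents against either. Equal list lengths gave 18 BRD3 genes in untreated cells (24%, against 8.57% of all genes) and 17 under RANKL (22.7%, against 7.98%). In both of these were 11, with 10 in both for I-BET against untreated and 9 for both agents against RANKL. With BRD2, equal lengths gave 0 under RANKL (against 0.877%) and 2 under I-BET (2.67%, against 0.832%). They gave 0 shared by RANKL and untreated cells, or by both agents and either alone. Gene starts alone gave 5 BRD2 genes under RANKL (6.67%, against 4.82% of all genes) and 2 in untreated cells (2.67%, against 1.83%). Shared by these were 2, and 0 were shared by I-BET and untreated cells. Starts of the promoter table gave 2 in untreated cells (2.67%, against 1.98%) and the shared counts 2 and 0. Shared BRD2 genes of both agents against RANKL, and against I-BET, numbered 2 within 2 kb, over whole genes and with those table starts. An overlap of 50% of the BRD2 region left 0 modifier genes with both antibodies under RANKL and I-BET. Over single genes, 25 of 46 changed their number of lists by more than 1.5 times with the top 50%, 25 with equal lengths, 11 with starts of the promoter table, 9 with gene starts alone, 5 with the nearest gene end, 3 within 500 bp, 3 by midpoint, 2 within 2 kb, 2 over whole genes and 0 with starts counted from 1. Of the 11, 9 have no entry in that table and so no call by construction, and Setd5 (5 lists) and Sirt4 (4) had 0. The same 9 genes have no known strand, so gene starts alone could not call them either. Kat6a, Kdm3b, Kdm5a and Setd1b, which BRD2 called, are among them. Depth limits every missing call, since it is unknown.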

Other observations

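Of the 121 related genes outside the symbol rule, 25 were in all 4 BRD3 lists (20.7%, against 22.7% of the modifier genes and 7.65% of all genes), among them Ncor1, which encodes the corepressor that carries HDAC3, Rbbp4 and Rbbp7, histone-binding subunits of several deacetylase complexes, Eed, a core PRC2 subunit, and Ash1l. Partners of acetyltransferase complexes stood at 9 of 37 (24.3%), partners of deacetylase complexes at 5 of 35 (14.3%), methylation writers and their partners at 9 of 40 (22.5%) and other demethylases at 2 of 9 (22.2%). BRD2 was called at Ncor1 in every treatment. I-BET alone left 13 of the 40 related genes called in untreated cells without a BRD3 region (32.5%, against 39.1% of all genes called there), among them Rcor2, Rbbp5 and Paxip1, and RANKL with I-BET left 8 of the 39 called under RANKL without one (20.5%, against 23.5%), among them Sap30, Chd3 and Suv39h1.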
